A study of Mus musculus with 2 samples.

Results

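The genes described here encode 4 families of splicing factors: the SR proteins (symbols beginning Srsf and a digit), the heterogeneous nuclear ribonucleoproteins (hnRNPs, Hnrnp), the proteins of the small nuclear ribonucleoprotein particles (snRNPs, Snrp) and the SF3a and SF3b subunits (Sf3a and Sf3b). All symbols of these forms in either count table were taken, 49 of 15574 listed genes: 11 SRSF, 19 HNRNP, 11 SNRP and 8 SF3 genes. RNA came from mouse T helper 17 (Th17) cells made from naive T cells of C57BL/6 background by 6 days of culture and then stimulated through CD3 for 4 h. The polarising cytokines were TGF-beta, IL-6, IL-23 and IL-1 beta. One culture was labelled CREB KO (knockout) and the other wildtype, with 1 library each, and the question was which genes depend on the transcription factor CREB in these cells. How CREB was deleted, and how many animals gave cells, is not stated in the labels.

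Splicing removes introns from pre-messenger RNA. The Sm proteins form a ring on the U1, U2, U4 and U5 small nuclear RNAs, and the resulting particles recognise the splice sites. SF3a and SF3b are parts of the U2 particle and hold it at the branch site. SR proteins bind exons and recruit the particles, whereas hnRNPs coat the transcript and often have the opposite effect on an exon. Many genes of both groups, SR protein genes above all, regulate themselves by including exons that send their own transcripts to nonsense-mediated decay. In T cells, hnRNP L and hnRNP LL drive the skipping of variable exons of the phosphatase gene Ptprc (CD45) that accompanies activation.

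Assigned reads, after scaling of the library size, numbered 24002138 in the library labelled CREB KO, called the KO-labelled library from here on, and 26454714 in the wildtype library. With 1 library per group there is no replicate error and no p-value, so each ratio below compares 2 libraries, not 2 genotypes. Ratios are of CPM (the reads of a gene relative to the scaled library size), KO-labelled over wildtype, with a 95% exact binomial interval that covers counting error only; reads amplified by PCR are not independent molecules. The targeted gene Creb1 had 25 reads in the KO-labelled and 13 in the wildtype library, a ratio of 2.08 (1.04 to 4.51). Its count thus does not bear out the label, and every direction below rests on the label alone. Creb1 also has 3 curated transcripts, and as described further on, low counts of such genes cannot be read as low expression. All 4 T cell markers (Cd3e, Cd3d, Cd3g, Cd4) exceeded a mean of 1 CPM. The Th17 cytokine genes Il17a and Il17f had 6981 and 13041 reads in the KO-labelled library against 13093 and 39898 in the wildtype one. Their part in the ratios below was not tested. Summed markers of B cells, myeloid cells, NK cells and erythroid cells stayed at or below 2.21 CPM in each library, and Cd8b1 had 234 and 237 reads while Cd8a was listed in neither.

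The 4 families were nearly level between the libraries. Of the 49 genes, 48 had a mean of 1 CPM or more, and all 49 had reads in both libraries. Of the 48, only Srsf10 was 1.2-fold or more higher in the KO-labelled library with an interval excluding 1, and no gene was 1.2-fold lower. Over all 10462 genes of 1 CPM or more the same rule took 6.19% as higher and 5.48% as lower, 11.7% in all, and among the 2162 genes of 100 CPM or more it took 26 and 22 (1.02%). None of the 48 was 1.5-fold apart, a limit passed by 2.48% of all genes upward and by 3.98% in either direction. Within 1.1-fold lay 39 of the 48, or 81.3%, against 57.5% of all genes. Read depth differs between these sets: the median level was 157 CPM for the 48 genes and 29.2 CPM for all genes. Among the 32 splicing factor genes of 100 CPM or more, 84.4% lay within 1.1-fold, close to the 81.4% of all 2162 genes of that depth. The SD of the log2 ratios over those genes was 0.086 for the splicing factors and 0.12 for all genes.

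**Figure D1:**
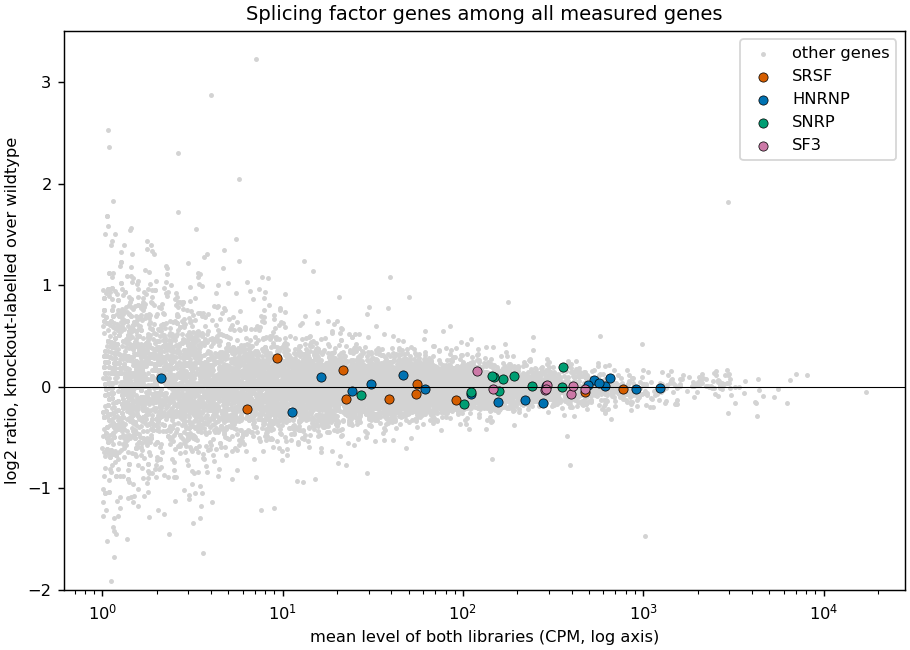
Log2 ratio (KO-labelled over wildtype) against the mean level in CPM on a log axis for all 10462 genes of 1 CPM or more, with the 48 splicing factor genes in colour by family. The coloured points lie between -0.25 and 0.28, inside the cloud of grey points at every depth.

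Read totals of the families showed small shifts in different directions. The SRSF genes summed to 36760 reads in the KO-labelled library and 41551 in the wildtype library, a ratio of 0.975 (0.961 to 0.989). The HNRNP genes summed to 150252 and 165596 reads, a ratio of 1.0 (0.993 to 1.01). The SNRP genes summed to 48958 and 52090 reads, a ratio of 1.04 (1.02 to 1.05), and the SF3 genes to 57599 and 64089, a ratio of 0.991 (0.979 to 1.002). The SRSF total was thus a little lower, beyond counting error, while the intervals of HNRNP and SF3 included 1. The higher SNRP total rested on Snrpf: without it the ratio was 1.013 (0.9994 to 1.027), and over the 6 SNRP genes with under 10% of their 50-base windows in transcripts of other genes it was 0.991 (0.975 to 1.008). All 49 genes together made up 1.23% of assigned reads in the KO-labelled library and 1.22% in the wildtype library.

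By members, the median log2 ratio was -0.061 for SRSF, 0.0081 for HNRNP, 0.0021 for SNRP and -0.020 for SF3, beside -0.0076 for all genes. SRSF ratios ranged from 0.858 to 1.22, HNRNP from 0.843 to 1.08, SNRP from 0.890 to 1.15 and SF3 from 0.951 to 1.12. A ratio above 1 was found for 3 of 10 SRSF, 10 of 19 HNRNP, 6 of 11 SNRP and 3 of 8 SF3 genes. Intervals above 1 were held by 10 of the 48 genes and intervals below 1 by 8, against 16.2% and 19.5% of all genes, or 35.7% in either direction. For the 32 genes of 100 CPM or more these counts were 9 above and 6 below, against 24.0% and 34.6% of all genes of that depth. By family the intervals stood above and below 1 for 1 and 2 of the SRSF genes, 3 and 4 of the HNRNP genes, 5 and 1 of the SNRP genes, and 1 and 1 of the SF3 genes.

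**Figure D2:**
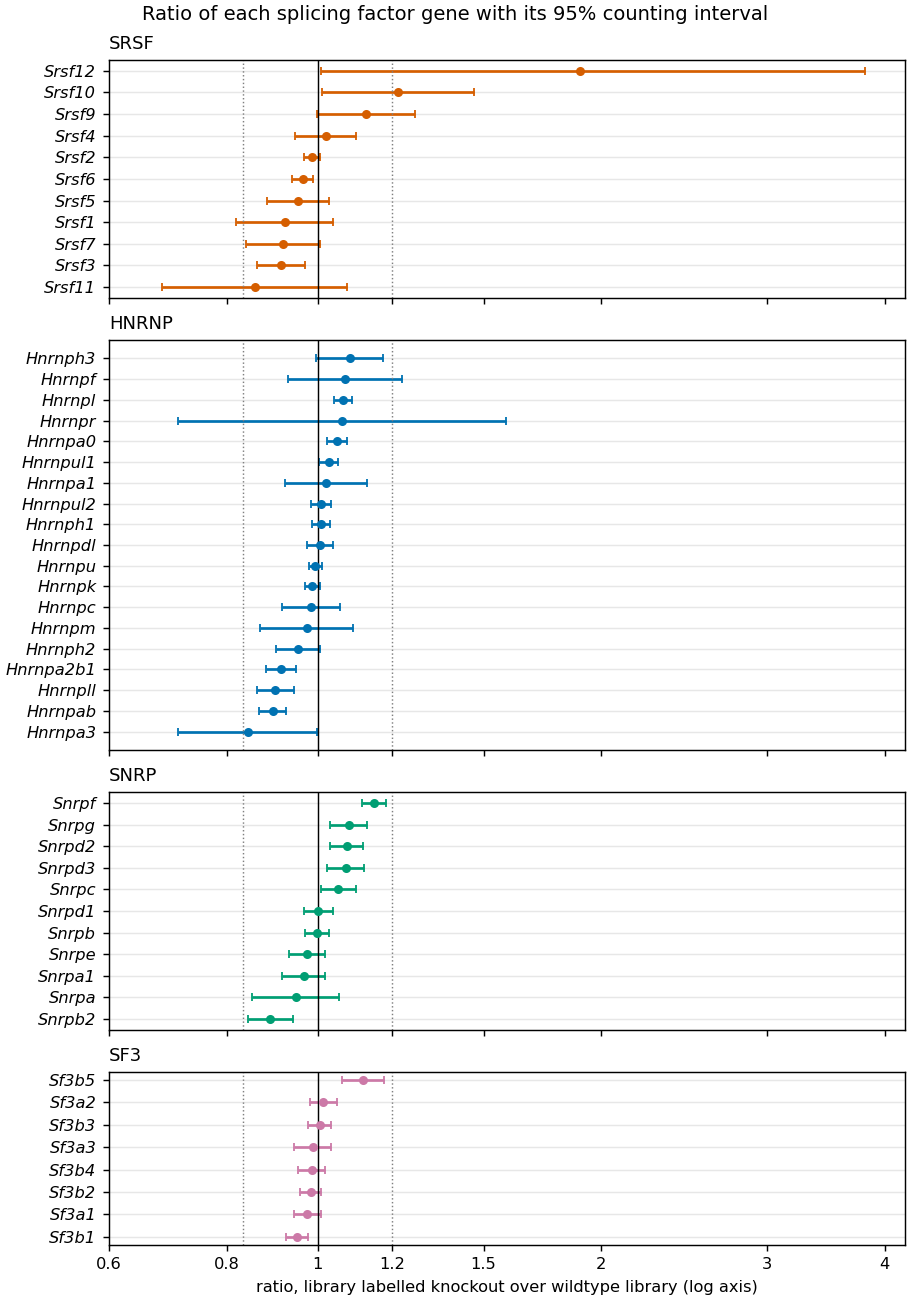
Ratio of each of the 49 genes (KO-labelled over wildtype, log axis) with its 95% counting interval, by family and ordered by ratio; the solid line marks 1 and dotted lines mark 1.2-fold. Only Srsf10 and the thinly counted Srsf12 lie beyond a dotted line.

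Levels differed far more between genes than between libraries. Expressed as RPKM, here CPM per kilobase of merged exon, the mean level of both libraries spanned 0.0948 for Hnrnpr to 417 for Snrpf among the 48 genes. The family medians of this level were 73.4 RPKM for SNRP, 49.5 for SF3, 33.4 for HNRNP and 12.4 for SRSF. SNRP medians were 76.0 RPKM in the KO-labelled library and 70.8 in the wildtype library, and SRSF medians were 12.2 in both. The SF3 genes were the most even, between 31.2 and 133 RPKM, and the HNRNP genes the least, between 0.0948 and 200. The low end of HNRNP rests on Hnrnpr, whose reads are divided by 22199 bases of merged exon, against a family median of 5842. The next lowest HNRNP gene, Hnrnpa3, was at 2.08 RPKM, and the SRSF genes spanned 0.748 to 262. These ranges overlap, and the order of the families was not the same among genes with 1 curated transcript, as described further on.

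**Figure D3:**
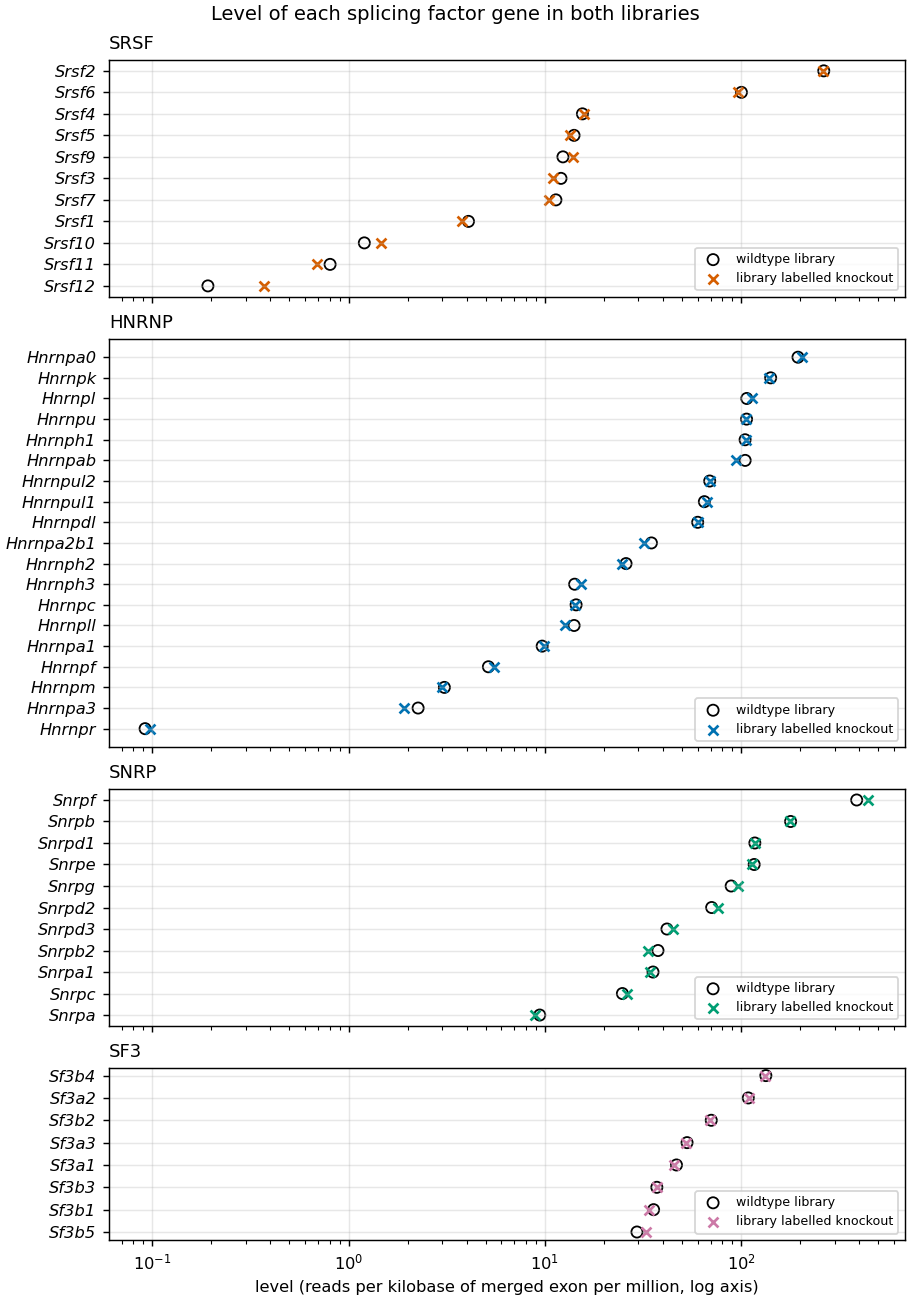
Level of each of the 49 genes in RPKM (log axis), with open circles for the wildtype library and crosses for the KO-labelled library, by family and ordered by mean level. The 2 symbols of a gene nearly coincide, while the HNRNP means alone reach from 0.0948 to 200.

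Among the SR protein genes, a pair supplied most of the reads. Srsf2 (chromosome 11, 116849901 to 116853094, GRCm38), which encodes SC35, a classical factor of splicing assembly, had 18477 reads in the KO-labelled library and 20647 in the wildtype library. Srsf6 (chromosome 2, 162931528 to 162937121) had 11172 and 12778. These genes together held 80.7% of SRSF reads in the KO-labelled library (80.2 to 81.1, exact binomial) and 80.4% in the wildtype library (80.1 to 80.8). The Srsf2 level was 260 and 264 RPKM, a ratio of 0.986 (0.967 to 1.01), and the Srsf6 level 96.8 and 100 RPKM, a ratio of 0.964 (0.939 to 0.989). No other SRSF gene exceeded 15.9 RPKM in either library. Srsf2 and Srsf6 were also the 2 measured SRSF genes with 1 curated transcript. As described further on, low levels of genes with more transcripts cannot be read as low expression, so these shares are of counted reads only.

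The shuttling SR proteins Srsf1, Srsf3 and Srsf7, which also serve messenger RNA export, had ratios below 1. Srsf3 (chromosome 17, 29032628 to 29043373), the smallest of the SR proteins, had 2096 reads in the KO-labelled library and 2527 in the wildtype library and was 1.09-fold lower in the former (1.03 to 1.16). Srsf7 had 892 and 1070 reads, a ratio of 0.919 (0.840 to 1.01). Srsf1, the founding member also known as ASF/SF2, had only 516 and 617 reads, a ratio of 0.922 (0.818 to 1.04). Of these ratios, only that of Srsf3 had an interval excluding 1. About 31.5% of the 50-base windows of Srsf3 coding transcripts also occur in transcripts of other genes, among them 4 annotated pseudogenes, so its count may be incomplete.

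Srsf4 and Srsf5 lay near the middle of the family. Srsf4 had 1355 and 1465 reads and a ratio of 1.02 (0.946 to 1.098), and 43.0% of its exon length is overlapped by an opposite-strand gene, Gm12992, with 104 and 102 reads. Srsf5 had 1286 and 1487 reads and a ratio of 0.953 (0.884 to 1.03). Srsf9 had 552 and 541 reads, and its ratio of 1.12 had an interval that just included 1 (0.997 to 1.27).

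Srsf10 and Srsf12 had the highest ratios of all SRSF genes, and both had their higher level in the KO-labelled library. Srsf10 (chromosome 4, 135855747 to 135869908) had 246 reads in the KO-labelled library against 223 in the wildtype library, a ratio of 1.22 (1.01 to 1.46). Srsf12 had 28 against 16 reads, under the 1 CPM limit, and a ratio of 1.899 (1.01 to 3.82). The mean of Srsf10 was 9.34 CPM, so the call is lost where 10 CPM is asked, and 11.4% of its windows recur in 2 pseudogenes. Both intervals begin just above 1 and both genes are low, with Srsf10 at 1.46 RPKM and Srsf12 at 0.371 RPKM in the KO-labelled library. Srsf11 had 140 and 180 reads, a ratio of 0.858 (0.682 to 1.08).

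The hnRNP genes held the largest share of splicing factor reads and the most even total. Hnrnpu (chromosome 1, 178321108 to 178337797), which encodes the scaffold attachment factor SAF-A, had 29495 reads in the KO-labelled library and 32726 in the wildtype library, the most of all 49 genes. Its ratio was 0.993 (0.978 to 1.01). Its relatives Hnrnpul1 and Hnrnpul2 had ratios of 1.03 (1.003 to 1.05) and 1.01 (0.984 to 1.03), so the hnRNP U group was flat at a summed ratio of 1.005 (0.993 to 1.02). Hnrnpk, the poly(C)-binding hnRNP K, had 21662 and 24206 reads and a ratio of 0.986 (0.968 to 1.005). Hnrnph1, of the G-run binding F/H group, had 14812 and 16203 reads and a ratio of 1.01 (0.985 to 1.03).

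Members of the hnRNP A/B and D group went different ways. Hnrnpa0 (chromosome 13, 58125879 to 58128556), the highest HNRNP gene per length at 204 RPKM in the KO-labelled library and 195 in the wildtype library, had 13130 and 13815 reads and was 1.05-fold higher in the former (1.02 to 1.07). Hnrnpab (chromosome 11, 51600100 to 51606847) had 6272 and 7722 reads and was 1.12-fold lower in the KO-labelled library (1.08 to 1.16). Hnrnpa2b1 (chromosome 6, 51460932 to 51469894) had 5045 and 6085 reads and was 1.09-fold lower (1.05 to 1.14). The direction of Hnrnpa0 was thus opposite to that of Hnrnpab and Hnrnpa2b1, each with an interval excluding 1. Hnrnpa3 had 247 and 323 reads, a ratio of 0.843 (0.711 to 0.998), the lowest of the family. Hnrnpa1 had 749 and 809 reads and a ratio of 1.02 (0.923 to 1.13). Windows of 50 bases shared with other genes made up 46.7% of Hnrnpa1 and 27.7% of Hnrnpa3, and these genes have 18 and 40 annotated pseudogenes that hold such windows, so both counts are uncertain. Part of the Hnrnpab exons, 29.1% of their length, lies opposite to Phykpl, a gene with 154 and 134 reads.

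The hnRNP L paralogs differed in direction. Hnrnpl (chromosome 7, 28808541 to 28822266) had 16261 reads in the KO-labelled library and 16841 in the wildtype library and was 1.06-fold higher in the former (1.04 to 1.09). Hnrnpll (chromosome 17, 80029487 to 80062334), the activation-linked regulator of CD45 splicing, had 3563 and 4357 reads and was 1.11-fold lower (1.06 to 1.16). Hnrnpll made up 17.97% of the reads of the pair in the KO-labelled library (17.4 to 18.5, exact binomial) and 20.6% in the wildtype library (20.01 to 21.1). These intervals do not overlap, but they cover counting error only. Ptprc itself had 75 and 81 reads, a ratio of 1.02 (0.735 to 1.41), and gene counts do not show which of its exons were used. Ptprc has 3 curated transcripts, and as described further on, low counts of such genes cannot be read as low expression.

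The remaining HNRNP genes had intervals that included 1. Hnrnph3 had 1160 and 1183 reads and a ratio of 1.08 (0.996 to 1.17), the highest of the family, and Hnrnpf 403 and 416 reads and a ratio of 1.07 (0.929 to 1.23). Hnrnpc, whose tetramer packages long transcripts, had 1473 and 1651 reads and a ratio of 0.983 (0.916 to 1.06). Hnrnpr had 52 and 54 reads, a ratio of 1.06 (0.711 to 1.58), and the lowest level of the 48 genes at 0.0976 and 0.0920 RPKM. Hnrnph2 had 2592 and 2998 reads and a ratio of 0.953 (0.904 to 1.005), and Hnrnpdl 6991 and 7662 reads and a ratio of 1.006 (0.973 to 1.04). Hnrnpm, which shares 14.7% of its exon length with March2 on the same strand, had 572 and 648 reads and a ratio of 0.973 (0.868 to 1.09). The intervals of all 7 genes included 1, so none had a direction beyond counting error.

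In the SNRP family the 7 Sm ring genes listed summed to a ratio of 1.05 (1.04 to 1.07), with single ratios from 0.973 to 1.15. Without Snrpf the sum stood at 1.025 (1.009 to 1.04), and over the 4 ring genes with under 10% shared windows at 1.006 (0.988 to 1.03), an interval that includes 1. Snrpf (chromosome 10, 93583029 to 93589706), the SmF gene, had 9207 reads in the KO-labelled library and 8844 in the wildtype library and was 1.15-fold higher in the former (1.11 to 1.18). Snrpg, Snrpd2 and Snrpd3, for SmG, SmD2 and SmD3, had 3617, 4777 and 3707 reads in the KO-labelled library against 3698, 4905 and 3817 in the wildtype library. Their ratios were 1.08 (1.03 to 1.13), 1.07 (1.03 to 1.12) and 1.07 (1.02 to 1.12). Snrpb, Snrpd1 and Snrpe, for SmB, SmD1 and SmE, had 8469, 5797 and 3738 reads in the KO-labelled library and 9347, 6380 and 4233 in the other. The ratios were 0.999 (0.970 to 1.03), 1.001 (0.966 to 1.04) and 0.973 (0.931 to 1.02). So 4 of the 7 ring genes had an interval above 1, against 24.0% of all genes of 100 CPM or more, and none an interval below 1. Of these 4, Snrpf, Snrpg and Snrpd2 share 21.3%, 18.1% and 11.7% of their windows with other genes, and Snrpd3 shares none. Among the 6 SNRP genes with under 10% shared windows, 1 interval was above 1 and 1 below. The interval of Snrpf lay above those of Snrpb, Snrpd1 and Snrpe.

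Snrpf was also the highest gene of the 49 per length, at 446 and 388 RPKM, followed in its family by Snrpb at 179 RPKM in each library, Snrpd1 and Snrpe. The exons of Snrpf span only 861 bases, of which 65.9% lie opposite to exons of Ccdc38, a gene with 80 and 76 reads. The windows it shares recur in 3 pseudogenes. If strand was ignored in counting, reads of Snrpf and its opposite neighbours cannot be told apart.

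Per length of merged exon, the genes of U1 and U2 specific proteins reached 9.18 to 35.7 RPKM, below the 43.4 to 417 RPKM of the ring genes. Snrpa and Snrpa1 have 3 and 2 curated transcripts, so their levels cannot be read as low expression, as described further on. Snrpb2 (chromosome 2, 143063039 to 143072853), the U2-B'' protein that binds U2 RNA, had 2304 reads in the KO-labelled library and 2852 in the wildtype library and was 1.12-fold lower in the former (1.06 to 1.19), the lowest ratio of the SNRP genes. Its binding partner Snrpa1, the U2-A' protein, had 2617 and 2987 reads and a ratio of 0.966 (0.916 to 1.02). Together they gave 0.929 (0.894 to 0.965), a sum with an interval below 1. Of the U1 proteins, Snrpc had 4090 and 4288 reads and a ratio of 1.05 (1.01 to 1.098), and Snrpa, the U1-A protein, 635 and 739 reads and a ratio of 0.947 (0.850 to 1.05).

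Because CREB binds the cyclic AMP response element (CRE), the promoters of the genes were searched for its letters. RefSeq promoter sequences (GRCm38.p6, 250 bases before to 50 after the start) were given for 43 of the 49 genes, in 57 promoters. The full palindrome TGACGTCA was found in 2 of the 57 promoters, or 3.51%, against 1.79% of all 32851 promoters and 3.33% of those of genes of 1 CPM or more. Both were SNRP genes, Snrpg and Snrpa. The runs around these matches are shown with the CRE in capitals, beside a stretch of the Snrpf promoter, the gene with the highest SNRP ratio, whose promoter has no match, and one from Srsf3 with 2 copies of the short form. All are 5' to 3' on the strand of the gene. The Snrpg run is chr6:86371480-86371509 (plus strand), where a longer annotated transcript of the gene already runs. The Snrpa run is chr7:27196345-27196416 (minus strand), the Snrpf run chr10:93589717-93589788 (minus strand) and the Srsf3 run chr17:29032510-29032590 (plus strand).
Snrpg: tcgcgcggcggTGACGTCAgacaccagcgc
Snrpa: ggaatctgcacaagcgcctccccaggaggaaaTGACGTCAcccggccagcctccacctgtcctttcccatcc
Snrpf: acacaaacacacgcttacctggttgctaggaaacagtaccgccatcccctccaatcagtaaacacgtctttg
Srsf3: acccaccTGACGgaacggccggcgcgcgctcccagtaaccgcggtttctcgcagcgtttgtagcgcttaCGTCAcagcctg

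The palindrome begins 49 bases before the start of Snrpg and 113 bases before that of Snrpa. The ratios of these genes, given above, lay on different sides of 1, and that of Snrpa had an interval including 1. The short form TGACG, on either strand and including the palindromes, was in 28 of the 57 promoters, or 49.1%, against 32.7% of the promoters of genes of 1 CPM or more and 20.8% of all. By gene it was found in 7 of 11 SRSF, 11 of 17 HNRNP, 5 of 9 SNRP and 0 of 6 SF3 genes. That made 53.5% of the 43 genes, against 36.8% of genes of 1 CPM or more, and several genes have more than 1 promoter. The promoters of the splicing factor genes had a median of 61% G and C and 26 CpG, against 61% and 21 CpG for all genes of 1 CPM or more. Measured genes with the short form (23) had a median log2 ratio of -0.024, and those without it (19) one of 0.0066. The range of ratios was 0.843 to 1.22 with it and 0.890 to 1.15 without it, so the sets overlapped over most of their length. A match of letters is not a binding site, and CREB binding was not measured here.

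Over measured genes, SF3 had the smallest SD of log2 ratios, 0.070 against 0.098 for HNRNP, 0.10 for SNRP and 0.15 for SRSF. Read depth differs between the families: all 8 SF3 genes had 100 CPM or more, against 2 of 10 SRSF genes. At 100 CPM or more the SD was 0.070 for SF3, 0.083 for 12 HNRNP, 0.10 for 10 SNRP and 0.024 for 2 SRSF genes. Sf3b1 (chromosome 1, 54985169 to 55027481), which encodes the large branch-site scaffold, had 9299 reads in the KO-labelled library and 10781 in the wildtype library and was 1.05-fold lower in the former (1.02 to 1.08). Sf3b5 (chromosome 10, 13005343 to 13009183), a small subunit bound to Sf3b3, had 3036 and 2996 reads and was 1.12-fold higher (1.06 to 1.18). These were the only SF3 genes with intervals excluding 1, in opposite directions. Sf3b3 had 9801 and 10753 reads and a ratio of 1.005 (0.977 to 1.03), and Sf3b2 had 11345 and 12724 reads, the most of the family, and a ratio of 0.983 (0.958 to 1.01).

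The 3 genes of SF3a gave nearly the same ratio. Sf3a1 had 6744 and 7623 reads and a ratio of 0.975 (0.944 to 1.01). Sf3a2 had 7036 and 7653 reads and a ratio of 1.01 (0.981 to 1.05), and Sf3a3 had 3503 and 3910 reads and a ratio of 0.987 (0.943 to 1.03). Summed, SF3a stood at 0.993 (0.973 to 1.01) and SF3b at 0.990 (0.976 to 1.003). Per length, Sf3b4 was highest at 132 and 134 RPKM (6835 and 7649 reads, a ratio of 0.985, 0.953 to 1.02), with 49.3% of its windows also present in 1 pseudogene, and Sf3b5 lowest at 32.9 and 29.5 RPKM.

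Levels were lower for genes with more than 1 annotated transcript. The 21 measured genes with 1 curated RefSeq transcript had a median level of 92.5 RPKM and none was under 10 RPKM. For the 27 others the median was 13.8 RPKM, and 9 of them were under 10. Across the 48 genes, level and number of curated transcripts had a Spearman correlation of -0.58, a description over genes that share both libraries. The level divides by all merged exons, which can exceed the longest annotated transcript: for Hnrnpk they span 6466 against 2970 bases. The part of this length in the correlation was not tested. Over all protein-coding genes of 1 CPM or more the medians were 9.73 RPKM with 1 transcript (5543 genes) and 4.02 with 2 or more (4521 genes). Families differ in this number: 9 of 11 SNRP and 7 of 8 SF3 genes had 1 curated transcript, against 2 of 10 SRSF and 3 of 19 HNRNP genes. Within genes of 1 transcript the median levels were 180 RPKM for SRSF, 110 for HNRNP, 92.5 for SNRP and 46.3 for SF3, so that SRSF, lowest over all measured members, came first there with its 2 genes. Hnrnpk and Hnrnph1, with 15 and 14 curated transcripts, were still at 141 and 105 RPKM. The file headers name uniquely assigned reads, and no source used here gives the treatment of reads shared by several transcripts of a gene. Low levels of genes such as Hnrnpa1, Srsf1, Srsf11 and Hnrnpr therefore cannot be read as low expression.

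**Figure D4:**
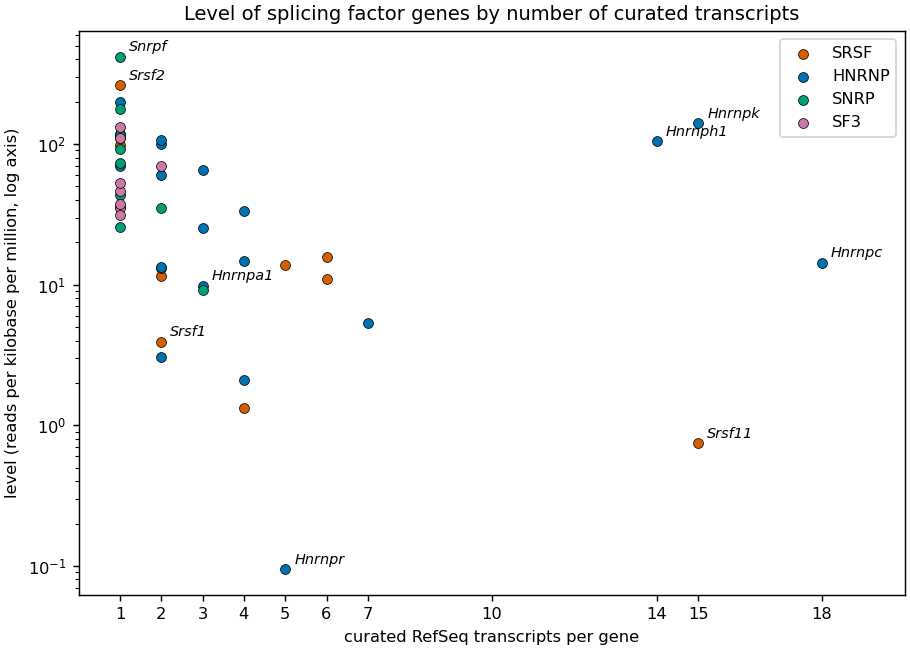
Mean level of the 48 measured genes in RPKM (log axis) against the number of curated RefSeq transcripts, coloured by family. Genes with 1 transcript lie between 25.5 and 417, whereas those with 2 or more reach from 0.0948 to 141.

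The ratios followed this number less closely. Their Spearman correlation over the 48 genes was -0.20 with the number of curated transcripts, 0.21 with the level per length and -0.25 with the merged exon length. The median log2 ratio was 0.0066 for genes with 1 curated transcript and -0.025 for those with 2 or more, beside -0.0076 for all genes.

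Other splicing genes, in 8 lists with 171 genes found of 176 symbols, were also close between the libraries. Of 169 with a mean of 1 CPM or more, 2 were 1.2-fold or more higher with an interval excluding 1 (Celf2 and Upf1, under 5 CPM in each library) and 1 lower (Rnps1), and their median log2 ratio was -0.019. The 1.2-fold rule took 6.19% of all genes as higher and 5.48% as lower. Intervals were above 1 for 25 (14.8%) and below 1 for 42 (24.9%), beside 16.2% and 19.5% of all genes. Read depth differs here too, with a median of 83.5 CPM for the listed genes and 29.2 CPM for all genes. Among the 74 listed genes of 100 CPM or more, 83.8% lay within 1.1-fold, close to the 81.4% of all genes of that depth. Rnps1, a peripheral exon junction factor, had 330 and 457 reads and was 1.26-fold lower in the KO-labelled library (1.09 to 1.45). Upf1, the helicase of nonsense-mediated decay, had 91 and 64 reads and was 1.56-fold higher (1.13 to 2.19). Celf2 had 73 and 56 reads, a ratio of 1.43 (1.0005 to 2.07).

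The genes of the SMN complex and its partners, which load Sm proteins onto small nuclear RNAs, had the lowest median of the 8 lists. Of 13 ratios 3 were above 1 (23.1%, beside 48.1% of all genes), 6 intervals were below 1 (46.2%, beside 19.5%) and 0 above (beside 16.2%), and the median log2 ratio was -0.15. Prmt5, the methyltransferase that modifies Sm tails, had 5175 reads in the KO-labelled library and 6444 in the wildtype library, a ratio of 0.885 (0.853 to 0.918), and its cofactor Wdr77 2174 and 2727 reads, a ratio of 0.879 (0.830 to 0.930). Strap, of the SMN complex, had 6412 and 7850 reads and a ratio of 0.900 (0.871 to 0.931). Of the same list, Clns1a had a ratio of 0.980 (0.931 to 1.03) and Coprs, with 27 and 25 reads, one of 1.19 (0.665 to 2.14). Gemin2 was the highest of the list among genes of 10 CPM or more at 1.08 (0.944 to 1.23) and Gemin7 the lowest at 0.867 (0.786 to 0.957). The median log2 ratio of the 7 Sm ring genes was 0.098. Over the 4 ring genes with under 10% shared windows the summed ratio was 1.006 (0.988 to 1.03), an interval that includes 1. All these values are differences between the same 2 libraries, and Prmt5, Wdr77, Strap, Clns1a and Coprs were named after their values were seen.

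In the other lists the median log2 ratio was -0.015 for 29 genes of U1, tri-snRNP and minor snRNP proteins, -0.014 for 19 genes of branch site recognition, 0.065 for 11 LSm genes and -0.031 for 25 genes of the Prp19 complex and catalytic step. It was -0.031 for 26 SR-related proteins and SR kinases, 0.020 for 31 other regulators and 0.024 for 15 genes of the exon junction complex and nonsense-mediated decay. Among genes of 10 CPM or more, Snrnp35 had the highest ratio of the first list at 1.099 (0.949 to 1.27). The extremes were Smndc1 at 0.912 (0.865 to 0.962) and U2af1l4 at 1.11 (1.01 to 1.21) of the second, and Lsm5 at 0.846 (0.756 to 0.946) and Lsm1 at 1.14 (1.03 to 1.26) of the LSm genes. For the Prp19 list they were Plrg1 at 0.866 (0.823 to 0.912) and Xab2 at 1.11 (1.05 to 1.16), and for the SR-related list Rnps1 and Sap18, the latter at 1.09 (0.959 to 1.25). The nuclear matrix protein gene Matr3 at 0.856 (0.825 to 0.888) and Ptbp1, the polypyrimidine tract binding protein, at 1.14 (1.03 to 1.26) bounded the other regulators. Magohb at 0.862 (0.730 to 1.02) and Smg9 at 1.102 (1.03 to 1.17) bounded the last list.

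**Figure D5:**
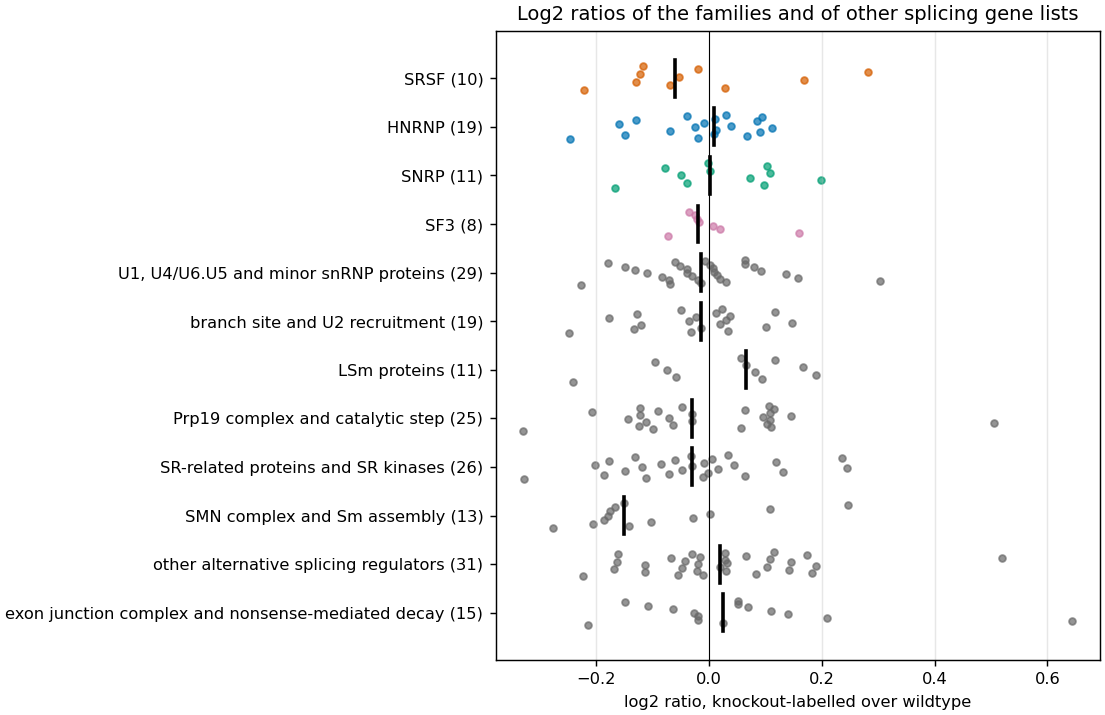
Log2 ratio (KO-labelled over wildtype) of every gene of 1 CPM or more in the 4 families (colour) and in 8 lists of other splicing genes (grey), with the median of each as a black bar and the number of genes in brackets. Medians lie between -0.15 for the SMN complex list and 0.065 for the LSm list, and most points lie within 0.2 of 0.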

How the data were processed

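Libraries were made from bead-enriched mRNA, per the labels' protocols. The deposited tables hold unnormalized counts of uniquely assigned reads for each gene symbol, per the file headers. HTSeq, bcl2fastq and mm10 are named in the submitters' processing notes. The aligner, annotation, strand setting and treatment of shared reads are not given in sources used here. A gene unlisted in a library was taken as 0 reads.

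Counts were scaled by trimmed mean of M-values factors (edgeR 4.0.16, R 4.3.3). Ratios used a prior count of 0.5, in proportion to library size, computed for all genes in Python 3.11.15 (numpy 2.4.6, scipy 1.17.1, pandas 2.3.3) with exact conditional binomial (Clopper-Pearson) 95% intervals. With 1 library per group no edgeR test could be fitted. Genes entered at a mean of 1 CPM. The call rule was a 1.2-fold ratio whose interval excluded 1. Exon lengths, positions and overlaps came from GENCODE M21 (GRCm38), and curated transcripts and promoters from RefSeq. All 49 genes had a length and a transcript number. Shared 50-base windows were searched in GENCODE transcripts. The steps were tested on simulated counts.

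Genes named were, per family, the 3 highest and 2 lowest levels, the 3 highest and 3 lowest ratios at 10 CPM or more, any gene 1.5-fold apart and a fixed set, and per list the highest and lowest ratio; the lowest of the first list and a summed Th17 marker level are not reported here. Others were named for depth or contrast after their values were seen. The members and lists were chosen with earlier results of these data known. Alternatives were other scalings (total counts, DESeq2 1.42.0 size factors, upper quartiles), filters, a prior count of 5, thinning, genes with 1 curated transcript, other fold rules and transcript lengths. After the data were seen, 3 more were added: genes with under 10% shared windows, genes of 100 CPM or more, and the SNRP family and Sm ring without Snrpf. Figures used matplotlib 3.10.9.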

Additional observations from a re-analysis of the deposited data

How the results depend on the processing

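The log2 ratios of the named genes moved by less than the counting interval under each scaling, a prior count of 5 and thinning of the deeper library, with the largest shift of 0.16 at the prior count of 5; a filter on low counts cannot move them, and the other alternatives were run on families only. Under the alternatives run on families, 44 of 46 family medians of the log2 ratio moved by less than the counting interval of a typical member. The exceptions were genes with 1 curated transcript, where the median was 0.067 for HNRNP (3 genes) and 0.072 for SNRP (9 genes). The signs of medians this close to 0 are not stable: HNRNP turned to -0.00073 at 10 CPM or more, SNRP to -0.020 for genes with under 10% shared windows and the median of all members to 0.0066 with 1 curated transcript. Without Snrpf the SNRP median was 8.1e-05. Summed ratios kept their reading, an interval above, below or including 1, in 50 of 56 cases. The exceptions were all members at 1.006 with total counts, HNRNP at 1.04 and all members at 1.015 with 1 curated transcript, all of which gained an interval above 1, SNRP at 0.991 and the Sm ring at 1.006 with under 10% shared windows, and SNRP at 1.013 without Snrpf, which lost theirs. Genes 1.2-fold higher, Srsf10 in the report, numbered 2 for SRSF and for all members with no filter on low counts (Srsf12 joined) and 0 for both at 10 CPM or more, with 1 curated transcript, with under 10% shared windows and under the 1.5-fold rule. With the interval alone and no fold limit, 10 members were higher and 8 lower: 2 lower for SRSF, 3 higher and 4 lower for HNRNP, 5 higher and 1 lower for SNRP, and 1 and 1 for SF3. With lengths of the longest annotated transcript, median levels were 16.0 for SRSF, 60.4 for HNRNP, 135 for SNRP and 85.4 RPKM for SF3, in the same order. With all matched members the SRSF median was 11.6. With 1 curated transcript medians were 180 for SRSF (2 genes), 110 for HNRNP, 92.5 for SNRP and 46.3 for SF3, and the order changed; the alternative removes most SRSF and HNRNP genes. No leave-one-out was possible with 1 library per group. No paired analysis was possible because each group has 1 library. Depth limits Srsf12, Hnrnpr and Srsf11, with under 200 reads in each library.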

Other observations

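Members of the complexes that the symbol pattern does not take had reads under other names. The Sf3b6 subunit, which contacts the branch point, is listed under its older symbol 0610009D07Rik, with 3359 reads in the KO-labelled library and 3795 in the wildtype library, a ratio of 0.976 (0.931 to 1.02) inside the range of the other SF3 genes. The SR-related gene Pnisr is listed as Sfrs18, with 3728 and 3989 reads and a ratio of 1.03 (0.985 to 1.08).

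Hnrnpd, which encodes the AU-rich element binding protein AUF1, and Snrpn, the imprinted relative of Snrpb, were listed in neither library. A count of 0 allows up to 3 reads, or 0.125 CPM in the KO-labelled library and 0.113 in the wildtype library, for counting error only. These genes have 4 and 9 curated transcripts, and no source used here says whether reads shared by them were counted. Their absence from the lists does not show that they were not expressed.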
